A study of Mus musculus with 15 samples.

Results

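The peaks at 10 genes of antioxidant defence were followed across the peak lists of H3K4me3, YY1 and the cohesin subunit SMC3 in HPC-7 cells. The 10 members are Nfe2l2 and Keap1 (sensing and control), Sod1, Sod2 and Cat (superoxide and peroxide removal), Prdx1, Txn1 and Txnrd1 (thioredoxin system), and Gclc and Gclm (glutathione synthesis). They were set as a list and not by their values, and stand among 21883 protein-coding genes. A peak belonged to a gene when it shared at least 1 bp with the gene span widened by 2500 bp on each side. Over 12 libraries, 89 of 95112 called peaks belonged to the 10 genes.

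HPC-7 is a mouse line of early haematopoietic cells that was derived from embryonic stem cells. CUT&Tag, in which an antibody guides a transposase to cut chromatin beside its target, was run on about 150000 cells per reaction. Control cells, titled wild type but carrying the name of a luciferase shRNA (shLUC) in their descriptions, were profiled for H3K4me3, YY1 and SMC3. Cells carrying the YY1 shRNA (shYY1) gave SMC3 libraries alone. The 4 groups have 3 libraries each, called biological replicates in the labels and all from this 1 line, and each description names an shRNA. The 3 IgG libraries were not analysed here. The series holds no YY1 library of shYY1 cells, so the extent of the YY1 knockdown is not known here. Abcam is named in the description of SMC3 library 1 of both arms and of no other SMC3 library, while the protocol gives an Abcam antibody for SMC3 as a whole. Whether any SMC3 library used another antibody is not stated. The cell type label was checked by H3K4me3, which was present at 13 of 13 haematopoietic progenitor genes and at 0 of 5 pluripotency genes and 0 of 6 liver, neural and muscle genes.

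The lists hold positions and no heights, so a called peak gives presence and length, not the strength of binding, and the depth is unknown. The H3K4me3 lists held 16763 to 17895 peaks, the YY1 lists 3750 to 10699, the control SMC3 lists 2061 to 4595 and the shYY1 SMC3 lists 2631 to 3213. The shortest YY1 list and the shortest control SMC3 list were those of the third libraries. Fewer cells with an occupied site and less occupancy per cell cannot be told apart in these data.

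Reactive oxygen species are by-products of respiration that damage lipids, proteins and DNA. Superoxide dismutases turn superoxide into hydrogen peroxide, which catalase, peroxiredoxins and glutathione peroxidases remove, and thioredoxin and glutathione supply the reducing power. The transcription factor NRF2, encoded by Nfe2l2, activates many of these genes through antioxidant response elements, and KEAP1 marks NRF2 for destruction until oxidants modify it. Blood stem cells are known to be sensitive to oxidants, which push them out of quiescence. H3K4me3 marks active promoters, YY1 is a zinc finger factor bound at many promoters, and SMC3 is part of the ring that holds chromatin loops and sister chromatids.

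The promoters on which the results turn are shown first. Sod2, Txn1 and Nfe2l2 are shown because SMC3 was called there in all 6 SMC3 libraries. The bases run from 200 before the RefSeq start site to the last base before it (GRCm38.p6, the assembly of mm10), 5′ to 3′ in the direction of the gene, and capitals mark the part that lies inside an SMC3 peak in every one of the 6 libraries. The Sod2 stretch is chr17:13007639-13007838 on the plus strand, Txn1 is chr4:57956412-57956611 on the minus strand and Nfe2l2 is chr2:75704664-75704863 on the minus strand.
Sod2: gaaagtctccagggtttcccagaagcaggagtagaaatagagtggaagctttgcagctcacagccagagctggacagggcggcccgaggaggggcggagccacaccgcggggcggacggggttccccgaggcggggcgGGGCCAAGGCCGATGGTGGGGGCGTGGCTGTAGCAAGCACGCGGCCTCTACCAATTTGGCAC
Txn1: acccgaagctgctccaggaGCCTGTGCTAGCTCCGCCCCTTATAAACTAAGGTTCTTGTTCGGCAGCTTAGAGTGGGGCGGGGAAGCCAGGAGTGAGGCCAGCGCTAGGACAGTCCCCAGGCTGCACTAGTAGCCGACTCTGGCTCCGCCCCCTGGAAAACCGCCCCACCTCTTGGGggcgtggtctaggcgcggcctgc
Nfe2l2: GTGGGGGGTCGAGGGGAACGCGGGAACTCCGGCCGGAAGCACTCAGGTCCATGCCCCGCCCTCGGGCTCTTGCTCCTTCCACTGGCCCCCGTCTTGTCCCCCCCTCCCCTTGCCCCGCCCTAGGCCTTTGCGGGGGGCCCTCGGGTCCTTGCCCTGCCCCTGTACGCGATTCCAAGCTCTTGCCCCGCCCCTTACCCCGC

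Prdx1 and Sod1 are shown because they hold a match to the antioxidant response element core under YY1 peaks, Prdx1 without SMC3 in any library and Sod1 with SMC3 in 3 of 6. Capitals mark matches to TGACNNNGC, the element's core, or to TGANTCA, the AP-1 site, read on either strand. In Prdx1 the second run of capitals is a core match in reverse that contains an AP-1 match, at -133 to -125 relative to the start site, and the first is an AP-1 match alone. Prdx1 is chr4:116685349-116685598 and Sod1 is chr16:90220662-90220761, both on the plus strand.
Prdx1: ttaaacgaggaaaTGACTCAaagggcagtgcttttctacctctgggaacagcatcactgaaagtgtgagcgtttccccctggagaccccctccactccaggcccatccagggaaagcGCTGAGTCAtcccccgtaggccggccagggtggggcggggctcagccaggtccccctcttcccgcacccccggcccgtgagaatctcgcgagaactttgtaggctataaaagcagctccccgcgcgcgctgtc
Sod1: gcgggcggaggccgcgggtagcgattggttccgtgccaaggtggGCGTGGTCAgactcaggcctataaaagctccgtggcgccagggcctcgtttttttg

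RefSeq gave promoter windows of 300 bases (250 before and 50 after the start site) for 9 of the 10 genes, 11 windows in all because Txnrd1 has 3. The antioxidant response element core matched in 5 of the 11 windows, at Nfe2l2, Prdx1, Sod1, Gclm and the middle start site of Txnrd1, against 12.4% of all 32851 windows. The Prdx1 and Sod1 matches each lay inside a YY1 peak in 2 of 3 libraries, and the Nfe2l2 match in 3 of 3. The AP-1 letters matched in 1 window, that of Prdx1, against 7.81% of all windows. The YY1 letters GCCATNTT matched in 0 of 11 windows, against 6.05% of all. A shorter YY1 core, CCGCCAT, and the GC box, GGGCGG, were added after the sequences had been seen. CCGCCAT was found at Nfe2l2, at -235 to -229 relative to the start site and overlapping the response element match, and at the third start site of Txnrd1, against 4.05% of all windows. GGGCGG was found in 9 of 11 windows, against 35.7% of all, and the GC content of the 11 windows ran from 48 to 79.7%, against a median of 52.7% for all windows. A match of letters is a description and not a measured site.

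H3K4me3 was present at all 10 genes in 3 of 3 libraries, YY1 at 8, control SMC3 at 3 and shYY1 SMC3 at 4, each in at least 2 of 3 libraries. By the same rule 53.2% of all protein-coding genes had H3K4me3, 34.6% YY1, 17.5% control SMC3 and 13.2% shYY1 SMC3. Among the 11642 genes with H3K4me3, 64.8% had YY1, 32.6% control SMC3 and 24.7% shYY1 SMC3. The members' 8, 3 and 4 of 10 differ from these shares by under 2 genes each, so the counts by themselves set the list apart in none of the 3. The YY1 count rested on the first and second libraries: it was 4 when a peak was required in 3 of 3 libraries, and 4 when either of these 2 libraries was left out. YY1 in 3 of 3 libraries was found at 33.6% of genes with H3K4me3. The 4 genes lost were Sod1, Cat, Txnrd1 and Keap1, which had no peak in the third YY1 list, the shortest. Such a pattern was usual, as 98.2% of the 3624 genes with H3K4me3 and YY1 in 2 libraries lacked it in the third.

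**Figure D1:**
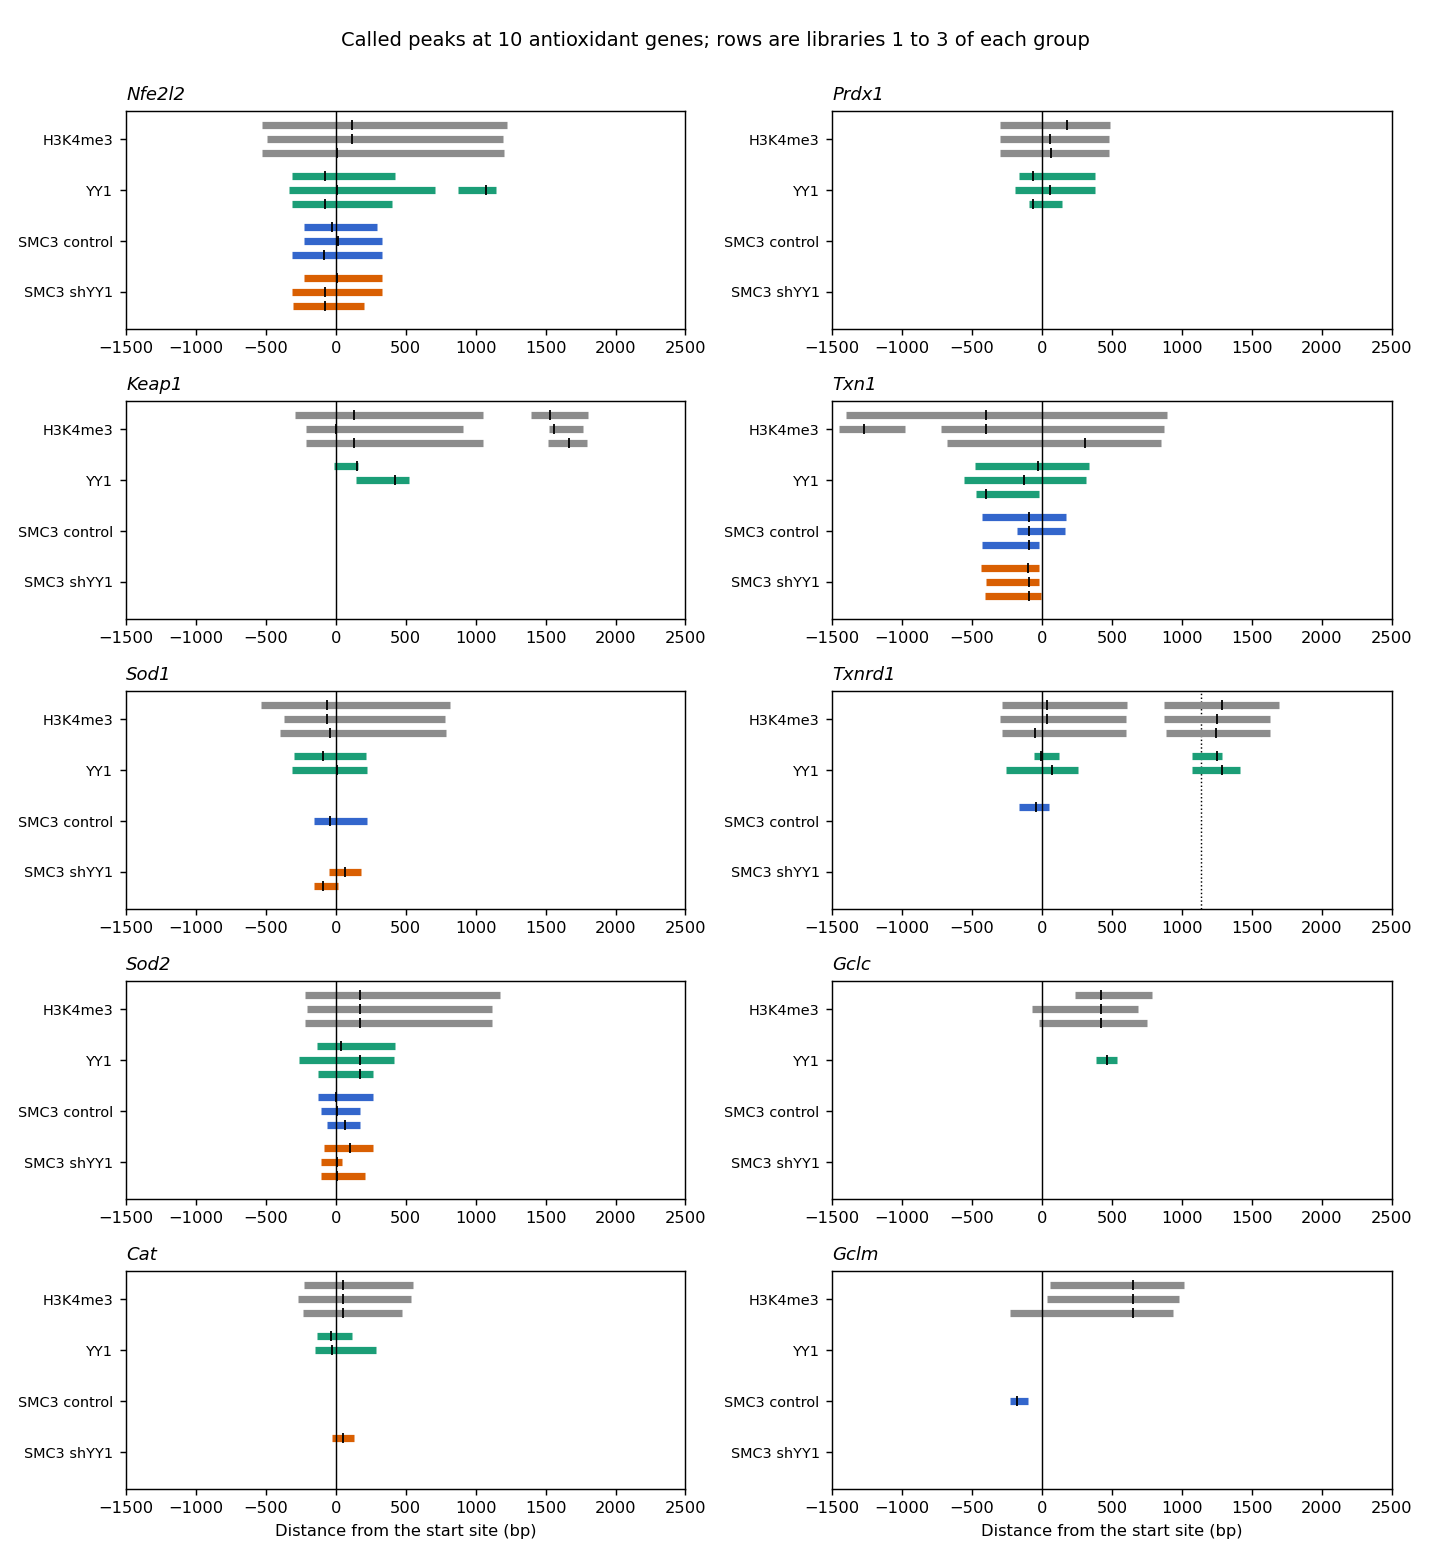
Called peaks (bars) and their summits (black ticks) in each library at the 10 genes, in bp from the RefSeq start site with the direction of transcription to the right. For Txnrd1 the zero is its middle start site and the dotted line the third; for Gclc the zero is the lower end of the gene span, whose strand was not used, and peaks with a summit outside the drawn range are left out. Of the 10 genes, Nfe2l2, Sod2 and Txn1 have SMC3 peaks in all 6 rows.

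Among the regulators, Nfe2l2 (gene ID 18024, chromosome 2, 75675513 to 75704663) had the highest mean covered length of the 10 genes for each target. H3K4me3 covered 2307, 2285 and 2263 bp in the 3 libraries. YY1 covered 732, 1547 and 715 bp, and the second library alone held 3 separate peaks. SMC3 covered 522, 557 and 640 bp in control and 557, 645 and 511 bp in shYY1. The arms overlapped, with means of 573 ± 60.6 and 571 ± 68.1 bp (SD, n = 3; difference -2 bp, exact two-sided permutation p = 1). The sign turned without control SMC3 replicate 3 (31.5 bp) and without shYY1 replicate 1 or 3 (5 and 28 bp). By length, the SMC3 peaks ranked at the 94.2 to 97.6 percentile of their control libraries and the 95.3 to 98.8 percentile of their shYY1 libraries. Their median of 557 bp was longer than that of 93.6% of the 1296 regions with exactly 1 SMC3 peak in each of the 6 libraries. All 6 SMC3 peaks shared 433 bp, from -228 to 204 relative to the start site, which takes in every base of the Nfe2l2 promoter printed above. A second H3K4me3 region lay inside the gene (chr2:75682917-75683513), over 21 kb downstream of the start site, in 3 of 3 libraries. It carried YY1 in 1 library and SMC3 in none. The long non-coding gene E030042O20Rik lies in or near the widened window of Nfe2l2. At least 2 separate H3K4me3 peaks in every library were seen at 29.5% of genes with H3K4me3.

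Keap1 (ID 50868, chromosome 9, 21229730 to 21239332), which encodes the inhibitor of NRF2, had no SMC3 peak in any of the 6 libraries. H3K4me3 covered 1749, 1369 and 1549 bp, in a region over the start site and a shorter one inside the gene (chr9:21237531-21237934). YY1 covered 173 bp in the first library, 374 bp in the second and none in the third. The 2 YY1 summits were 148 and 424 bases downstream of the start site, and the first peak alone covered that site. SMC3 in 0 of 6 libraries was found at 44.9% of genes with H3K4me3 and YY1 in 2 libraries. Nfe2l2 and its inhibitor thus differed in SMC3 calls while both carried H3K4me3. They differed in YY1 as well, which was called in 3 libraries at Nfe2l2 and in 2 at Keap1. The longest YY1 total at Keap1, 374 bp, was below the shortest at Nfe2l2, 715 bp.

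**Figure D2:**
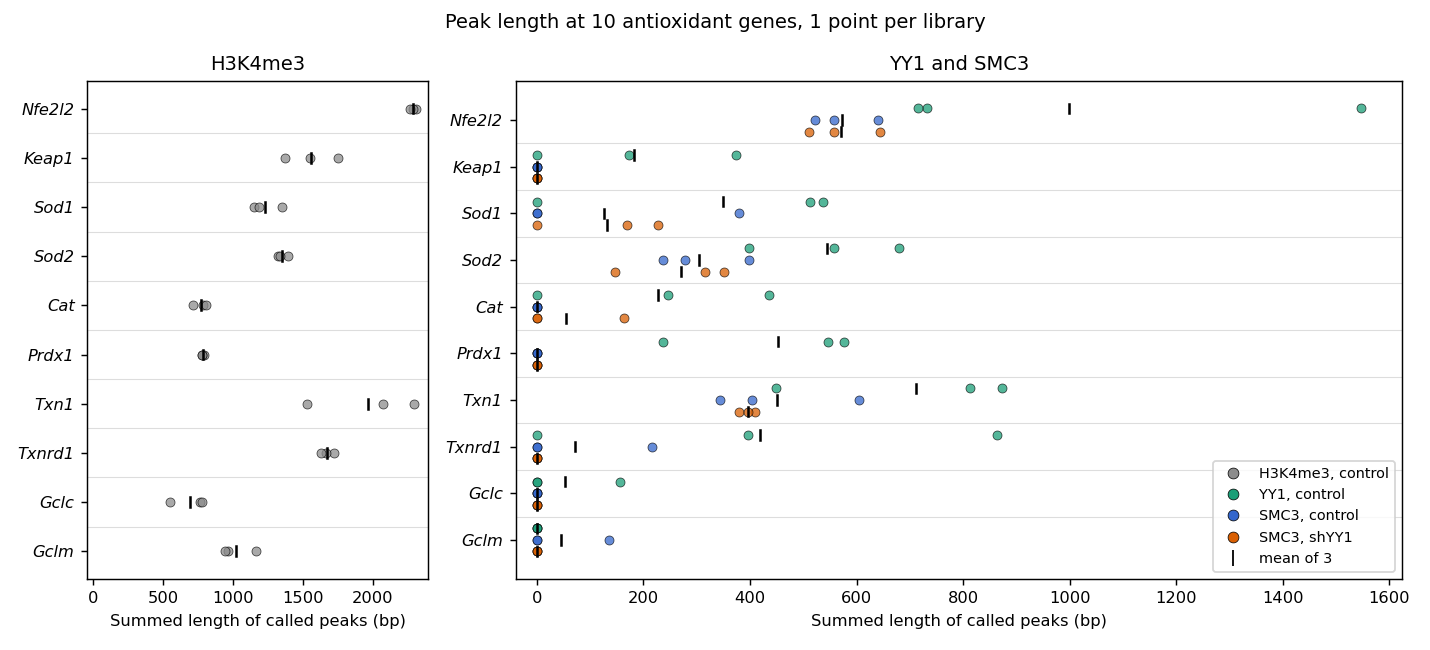
Summed length in bp of called peaks at each gene, 1 point per library, with black ticks for the mean of 3 libraries; H3K4me3 is on the left, YY1 and SMC3 of both arms on the right, and a point at 0 is a library without a peak. Control and shYY1 SMC3 points overlap at Nfe2l2, Sod2 and Txn1, while Prdx1, Keap1 and Gclc have SMC3 at 0 in all 6 libraries.

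The superoxide dismutases differed from each other. Sod2 (ID 20656, chromosome 17, 13007839 to 13018119), the manganese enzyme of mitochondria, had H3K4me3 over 1390, 1325 and 1335 bp and YY1 over 557, 680 and 398 bp. Its SMC3 peaks measured 399, 279 and 237 bp in control and 352, 146 and 315 bp in shYY1. The arms overlapped, at 305 ± 84.1 and 271 ± 110 bp (SD, n = 3; difference -34.0 bp, exact permutation p = 0.7). The sign turned without control SMC3 replicate 1 (13 bp) and without shYY1 replicate 2 (28.5 bp), and the value was -82.7 bp with equal numbers of longest peaks. SMC3 summits lay 3 to 100 bases downstream of the start site, and the 104 bp shared by all 6 peaks ran from -62 to 41 relative to it. The summits of YY1 libraries 2 and 3 and of the 3 H3K4me3 libraries lay farther in, 173 or 174 bases downstream.

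Sod1 (ID 20655, chromosome 16, 90220762 to 90226333), the copper and zinc enzyme of the cytosol, had H3K4me3 over 1348, 1152 and 1189 bp. YY1 covered 513, 537 and 0 bp. SMC3 covered 0, 380 and 0 bp in control and 0, 228 and 169 bp in shYY1, so Sod1 was the 1 gene of the 10 called in at least 2 shYY1 libraries and in fewer than 2 control libraries. That pattern was found at 1.59% of genes with H3K4me3, and the reverse, seen at 0 of the 10, at 9.52%. The covered lengths of the arms overlapped, at 127 ± 219 and 132 ± 118 bp (SD, n = 3; difference 5.67 bp, exact permutation p = 1). The sign was negative without control SMC3 replicate 1 or 3 (-57.7 bp each), without shYY1 replicate 2 or 3 (-42.2 and -12.7 bp) and with equal numbers of longest peaks (-50.7 bp). Both arms used part of 1 region over the start site, chr16:90220606-90220985 in control and chr16:90220606-90220942 in shYY1. The response element match printed above lay inside an SMC3 peak in 1 control and 1 shYY1 library.

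Cat (ID 12359, chromosome 2, 103453904 to 103485153) encodes catalase, the haem enzyme that splits hydrogen peroxide. H3K4me3 covered 784, 811 and 712 bp, near the middle of each library's list by length (46.1 to 60.0 percentile). YY1 covered 246, 435 and 0 bp, with summits at -33 and -30 relative to the start site. SMC3 was called in 0 control libraries and 1 shYY1 library, over 164 bp, a peak near the short end of its list. A single short peak in 1 library is below the rule of 2 libraries used for a call.

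Of the thioredoxin system, Txn1 had SMC3 in every library and Prdx1 in none. Txn1 (ID 22166, chromosome 4, 57943373 to 57956411), the cytosolic thioredoxin, had H3K4me3 over 2294, 2070 and 1530 bp and YY1 over 813, 873 and 448 bp. SMC3 covered 604, 343 and 403 bp in control and 410, 380 and 397 bp in shYY1. The control libraries lay both above and below the shYY1 libraries, at 450 ± 137 against 396 ± 15 bp (SD, n = 3; difference -54.3 bp, exact permutation p = 0.8). The sign turned without control SMC3 replicate 1 (22.7 bp) and without both libraries whose description names Abcam (15.5 bp). The 6 SMC3 summits fell within 5 bp of each other, between -97 and -92 relative to the start site, in the capitals of the Txn1 promoter above. Of the 1296 regions with 1 SMC3 peak in each library, 5.25% had a spread of 5 bp or less, and the median spread was 96 bp. At Sod2 and Nfe2l2 the spread was 97 and 102 bp. The 3 YY1 summits at Txn1 were less aligned, at -28, -132 and -398. All 3 shYY1 peaks and the third control peak ended short of the gene span, so with no widening of the span SMC3 was left at Txn1 in 2 control libraries and 0 of shYY1, a difference of -316 bp (exact permutation p = 0.4). The long non-coding gene Gm35344 also lies in or near the widened window.

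Prdx1 (ID 18477, chromosome 4, 116685599 to 116700000), a peroxiredoxin that uses thioredoxin to reduce peroxide, had H3K4me3 over 792, 782 and 781 bp, the narrowest spread of the 10 genes. YY1 covered 547, 576 and 236 bp, with summits at -63, 59 and -63 relative to the start site. No SMC3 peak was called in any library of either arm. Among 3916 genes with H3K4me3 and YY1 in 3 of 3 libraries, 541 (13.8%) had SMC3 in 0 of 6 libraries and 34.7% had it in all 6. The 541 are 4.65% of genes with H3K4me3. By length the YY1 peaks at Prdx1 ranked at the 86.6, 81.0 and 23.8 percentile of their lists. The long non-coding gene AV051173 and the protein-coding gene Mmachc also lie in or near the widened window, and a peak there may belong to another gene than Prdx1.

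Txnrd1 (ID 50493, chromosome 10, 82833951 to 82897724), the reductase that recharges thioredoxin, has 3 start sites in RefSeq. None of the libraries had a peak over the outermost one at position 82833951. The other two, at 82859206 and 82860341, each had H3K4me3 in 3 and YY1 in 2 libraries. H3K4me3 covered 1724, 1668 and 1632 bp and YY1 396, 863 and 0 bp. SMC3 was called once, over 216 bp at the middle start site in control library 1, and in 0 shYY1 libraries. The protein-coding gene Eid3 and the long non-coding gene Gm38560 lie in or near the widened window, and a peak there may belong to another gene than Txnrd1. The third start site is shown with 30 bases, chr10:82860356-82860385 on the plus strand, because the 7 letters CCGCCAT in capitals lie inside its YY1 peak in both libraries.
Txnrd1: gtgtttttagCCGCCATgcagagcttttct

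The genes for the 2 subunits of glutamate cysteine ligase, the rate-limiting enzyme of glutathione synthesis, were the members without reproducible YY1. Gclc (ID 14629, chromosome 9, 77754535 to 77794489), the catalytic subunit, had H3K4me3 over 552, 762 and 777 bp. YY1 was called in the second library alone, over 157 bp, at the 2.52 percentile of its list. The long non-coding gene Gm34654 lies in or near its window. Gclm (ID 14630, chromosome 3, 122245487 to 122267215), the modifier subunit, had H3K4me3 over 962, 944 and 1168 bp with the summit 649 bases downstream of the start site in all 3 libraries. That start site, at 122245557, lies inside the gene span. The H3K4me3 peaks of libraries 1 and 2 began 56 and 36 bases downstream of it, and only the peak of library 3 covered it. The response element match at Gclm lay inside an H3K4me3 peak in 1 library. Gclm had no YY1 peak. It had 1 SMC3 peak of 135 bp, in control library 2, at the 4.68 percentile of that list with its summit at -182. Of genes with H3K4me3 and YY1 in at most 1 library, 92.2% had SMC3 in 0 libraries, as Gclc did. The Gclm promoter window had the highest GC content of the 11, 79.7%, and 48 CG pairs, against a median of 7 in all windows. The long non-coding gene Gm46822 and the pseudogene Gm6061 lie in or near the widened window.

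The length of H3K4me3 ranked the genes as Nfe2l2 (2285 ± 22.0 bp), Txn1 (1965 ± 393), Txnrd1 (1675 ± 46.4), Keap1 (1556 ± 190), Sod2 (1350 ± 35.0), Sod1 (1230 ± 104), Gclm (1025 ± 124), Prdx1 (785 ± 6.08), Cat (769 ± 51.2) and Gclc (697 ± 126; SD, n = 3 for each). In this order only Gclm and Prdx1 were neighbours whose libraries did not overlap. Nfe2l2, Keap1 and Txnrd1 reached their totals with 2 regions. By summed length the genes with SMC3 in all 6 libraries stood at ranks 1, 2 and 5. By the longest single H3K4me3 peak the order differed, since the 2 peaks of Txnrd1 were each of middling length (899, 903 and 888 bp for the longer one). The longest single peaks were those of Txn1 (2294, 1592 and 1530 bp), Nfe2l2 (1755, 1688 and 1737 bp) and Sod2 (1390, 1325 and 1335 bp), the genes with SMC3 in all 6 libraries. Those of Keap1 (1345, 1121 and 1267 bp) and Sod1 (1348, 1152 and 1189 bp) overlapped the range of Sod2. Whether H3K4me3 length goes with SMC3 calls over all genes was not tested. SMC3 was called in all 6 libraries at 3 of the 4 members with YY1 in 3 libraries and at 0 of the 6 others, against 12.8% of all genes with H3K4me3. Across all genes with H3K4me3 the share with SMC3 in all 6 libraries was 34.7% where YY1 was called in 3 libraries and 3.53% where it was called in 2. YY1 and SMC3 calls both depend on the length of the lists, and the part of this in the relation was not tested.

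**Figure D3:**
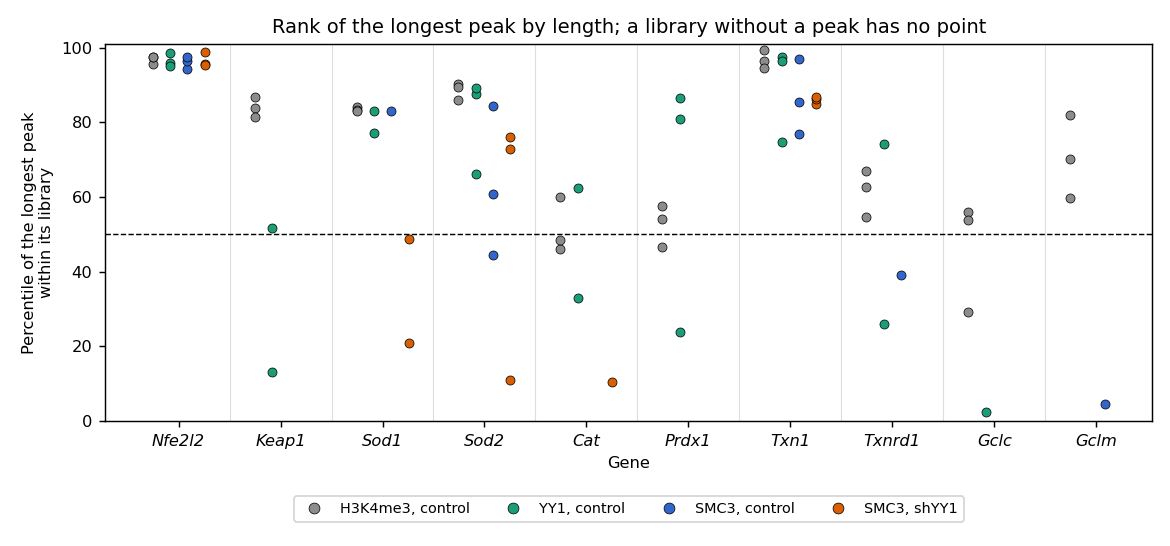
Percentile of the longest peak at each gene within its own library, by target, with 1 point per library that has a peak and a dashed line at the middle of each list. All Nfe2l2 points lie at the 94.2 percentile or above, while the single YY1 peak at Gclc lies at 2.52 and the single SMC3 peak at Gclm at 4.68.

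The last question was whether SMC3 differs between control and shYY1 at these genes. Control libraries had SMC3 at 4, 5 and 3 of the 10 genes and shYY1 libraries at 4, 4 and 4, a mean of 4.0 in both arms (SD 1.0 and 0.0, n = 3). Over the genes with H3K4me3, the shares with SMC3 were 38.3, 39 and 18.3% in the control libraries and 23.6, 27.3 and 26.5% in the shYY1 libraries. The 7 members with an SMC3 peak in any library were compared by covered length, together with all 5773 such genes. The mean was shorter in shYY1 at 5 (Sod2, Txn1, Txnrd1, Gclm and Nfe2l2) and longer at 2 (Sod1 and Cat), with a median difference of -34.0 bp, against -48.7 bp for all genes tested. The tally is not firm: the sign turned on leaving out 1 library at Sod1, Sod2, Txn1 and Nfe2l2, and Txnrd1, Gclm and Cat each rest on 1 peak in 1 library. The arms stood apart at 0 of the 7. Of all genes tested, 4.00% were shorter in every shYY1 library than in every control library and 0.485% longer, shares at which 0 of 7 is no result about the members. With 3 libraries a side the exact permutation test cannot go below p = 0.1, and no gene of the 5773 had an adjusted p under 0.05 or an unadjusted p under 0.05. The limma fit on log2(length + 100 bp) over 4431 genes also made 0 calls, with 109 genes lower and 4 higher at an unadjusted p under 0.05. In that fit Nfe2l2 differed by -0.01, Txn1 by -0.12, Sod2 by -0.16 and Sod1 by 0.29 on the log2 scale, each with a limma adjusted p of 1, and the median of all genes was -0.16. These values do not show that SMC3 was unaltered at the members, since length says little of occupancy.

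A wider list of 51 genes of the same pathways, drawn up with earlier results of these data known, put the 10 in context. H3K4me3 was present at 42 of the 51. Of the 42, 28 (66.7%) had YY1, 21 (50%) control SMC3 and 12 (28.6%) shYY1 SMC3, against 64.8%, 32.6% and 24.7% of all genes with H3K4me3. Among 13 peroxiredoxin, thioredoxin and glutaredoxin genes with the mark, 10 had YY1, 8 control SMC3 and 4 shYY1 SMC3. The 9 marked glutathione genes had 6, 3 and 3, and the 19 marked NRF2 partners and targets 12, 10 and 5. No list was tested. Calls in at least 2 libraries were fewer in shYY1 over all genes too. The 2 longest SMC3 lists were control lists (4511 and 4595 peaks), as was the shortest (2061), against 2631 to 3213 peaks in shYY1. The part of list length in these counts was not tested.

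**Figure D4:**
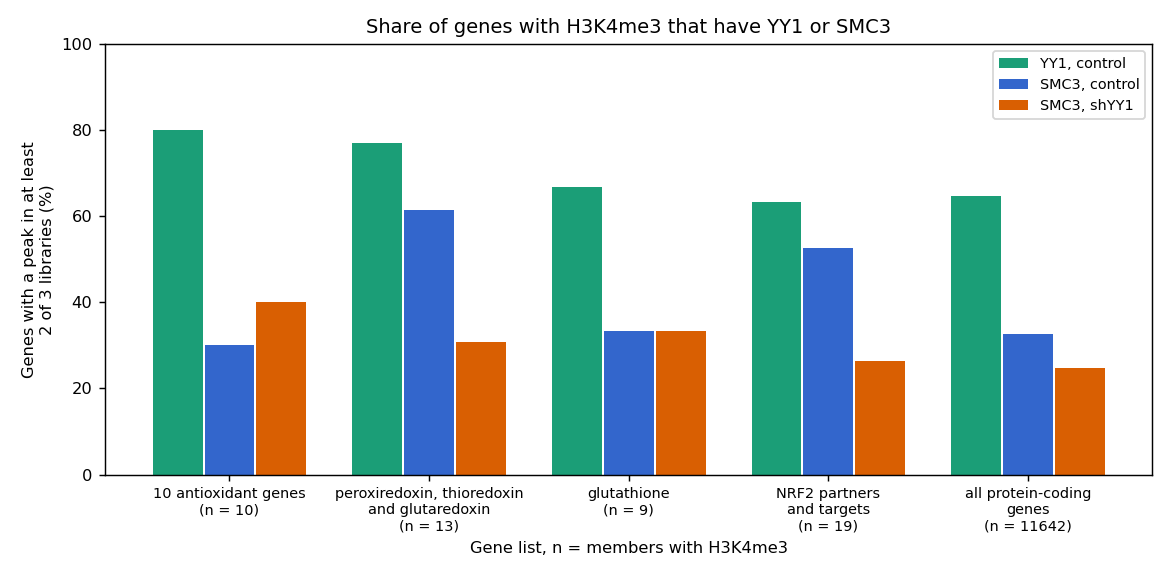
Share of genes with H3K4me3 that had YY1, control SMC3 or shYY1 SMC3 in at least 2 of 3 libraries, for the 10 genes, 3 pathway lists and all protein-coding genes; n is the number with H3K4me3. The 10 genes show 80, 30 and 40%, and all protein-coding genes 64.8, 32.6 and 24.7%.

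In the wider list 5 genes matched Nfe2l2, Sod2 and Txn1 in having YY1 and SMC3 in all 9 libraries, as did 6.23% of all protein-coding genes and 11.7% of those with H3K4me3. All 5 are among the 42 with H3K4me3, so their share is close to that of marked genes in general. These were Cul3, the ubiquitin ligase scaffold that works with KEAP1, Nfe2, a blood relative of NRF2, Gpx1, a glutathione peroxidase, Glrx5, a mitochondrial glutaredoxin, and Txnrd3. Control and shYY1 SMC3 lengths overlapped at each of them, for example 461 ± 78.0 and 409 ± 29.1 bp at Cul3 (SD, n = 3; exact permutation p = 0.4). The genes were picked for SMC3 in all 6 libraries, so a loss of calls in shYY1 could not appear among them. Of all 5773 genes tested, 4.00% were shorter and 0.485% longer in shYY1 without overlap. The overlap at these 5 is therefore no result about them. Glrx3 and G6pdx resembled Prdx1, with YY1 in 3 of 3 libraries and SMC3 in 0 of 6.

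Txnip, which encodes an inhibitor of thioredoxin, was the 1 gene of the wider list with SMC3 in 3 libraries of one arm and at most 1 of the other. Its control SMC3 peaks measured 148, 180 and 185 bp and no shYY1 library had one, so the arms did not overlap (171 ± 20.1 against 0 bp, SD, n = 3; exact permutation p = 0.1, the smallest possible; adjusted p = 1). SMC3 in 3 control and at most 1 shYY1 library was found at 1.39% of genes with H3K4me3, and the reverse at 0.198%; none of the 10 members had either pattern. These peaks lay at chr3:96557782-96557969, overlapped the YY1 peaks of 2 libraries, and were short, at the 10.7 to 24.4 percentile of their lists. When the lists were cut to equal numbers of longest peaks only 1 control peak was left and the difference was -61.7 bp (exact permutation p = 1). The limma value was -1.44 on the log2 scale (limma adjusted p = 0.122, and 0.649 with replicate number as a block). As no shYY1 library had a peak, the size of this value depends on the 100 bp added to each length.

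Of the wider list 9 genes lacked H3K4me3: Sod3, Srxn1, Gpx3, Gpx7, Gpx8, Slc7a11, Mgst1, Me1 and Nfe2l3. No peak of any target was called at 8 of these. Nfe2l3, another relative of NRF2, had SMC3 in 2 control libraries (144 and 157 bp, chr6:51459452-51459608) without H3K4me3 or YY1, at the 9.03 and 3.76 percentile of their lists, and in 0 shYY1 libraries. Both peaks lay beyond the upper end of the gene span (51432669 to 51458772) and belonged to Nfe2l3 through the widening alone.

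Likeness was measured as the Euclidean distance of log2(length + 100 bp) over the 12 libraries. The nearest genes to Nfe2l2 were Hnrnpa2b1 (0.641), Ubxn6 (0.678) and Flot1 (0.737), and those to Sod2 were Tpt1 (0.609), Hspa9 (0.659) and Slc20a1 (0.66). Txn1 was nearest to Mbtd1 and Utp18, neighbouring genes at the same distance of 0.492, and then to Stat3 (0.659). Prdx1 was nearest to Abcb8 (0.111), Pmf1 (0.279) and Ndufa3 (0.324). The pattern of calls of Nfe2l2, Sod2 and Txn1, a peak in all 12 libraries, was shared with 6.2% of all genes, while that of Sod1 was held by 12 genes in all.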

How the data were processed

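The deposited files were lists of called peaks, 1 per library, for 12 of the 15 libraries; per the file headers they give chromosome, start, end, name and summit offset in bp, with no score or count. Per the submitters' processing notes, the authors used MACS2 2.2.9.1, Picard 3.1.1, Bowtie2 2.5.1 and cutadapt 4.5, with build mm10. The sources used here give no settings, peak threshold or use of IgG. Starts were taken as counted from 0 and printed from 1. Between 49 and 99 running peak numbers were missing from each list.

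RefSeq (GRCm38.p6) gave the gene spans, and its promoter table the start sites and sequences (all members matched the first, 9 of 10 the second). The lengths of peaks overlapping each span widened by 2500 bp were summed per library. The SMC3 arms were compared by exact permutation (two-sided, 20 assignments), with Benjamini-Hochberg adjustment over 5773 genes, and with limma 3.58.1 (R 4.3.3; Python 3.11.15, pandas 2.3.3) on log2(length + 100) for genes with SMC3 in at least 2 of 6 libraries. The calculations were tested on simulated data. Groups came from the sample titles. The members, lists, motifs, alternatives and naming rule (all members; wider-list genes by fixed call patterns; 3 nearest genes) were chosen with earlier results of these data known; GGGCGG and CCGCCAT were added after the sequences had been seen. Alternatives were windows of 1000 and 0 bp, an overlap of 50%, 3 of 3 libraries, equal numbers of longest peaks (2061), a replicate block, and leaving out libraries.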

Additional observations from a re-analysis of the deposited data

How the results depend on the processing

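The counts of members with H3K4me3 (10), control SMC3 (3) and shYY1 SMC3 (4) stayed within 1.5 times of these in every alternative run. The YY1 count of 8 was 4 with 3 of 3 libraries and ran from 4 to 8 when 1 library was left out. The difference in members with SMC3 per library (0) ran from -0.5 to 0.5 when 1 library was left out and was -0.333 with no widening and with equal numbers of longest peaks. The number of genes past the adjusted threshold was 0 in every alternative, which says nothing of stability for the permutation test, whose smallest p is 0.1. Leaving out 1 library turned the sign of the SMC3 length difference at Sod1 (-57.7 to 132 bp), Sod2 (-74.5 to 28.5 bp, reversed at 13 and 28.5 bp), Txn1 (-108 to 22.7 bp, reversed at 22.7 bp without control SMC3 replicate 1) and Nfe2l2 (-39 to 31.5 bp, reversed at 5, 28 and 31.5 bp); these differences were within the spread of the libraries and the cause was not tested. Sod1 was also reversed with equal numbers of longest peaks (-50.7 bp), and Txn1 without both libraries whose description names Abcam (15.5 bp). With no widening Txn1 was -316 bp, because 4 of its 6 SMC3 peaks lie outside the gene span, and with equal numbers of longest peaks Sod2 was -82.7 bp. The covered lengths showed no pairing of the SMC3 libraries by replicate number: same-numbered deviations correlated at 0.0186, 0.0244 and -0.0446 over 4431 genes, and 2 of 6 samples correlated best with their own number. These correlations cannot show whether the libraries were prepared in pairs. With the replicate block the count of genes past the threshold was 0 in the exact sign-flip test (smallest p 0.25) and 0 in limma (92 genes lower and 6 higher at an unadjusted p under 0.05), and the difference in members per library was 0. Unknown depth limits every count of called peaks.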

Other observations

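At the 10 genes many YY1 and SMC3 peaks of different libraries began or ended on exactly the same base. Of the 98 edges of the 49 YY1 and SMC3 peaks at these genes, 31 (31.6%) were also an edge of the same side in another YY1 or SMC3 library, against 22% of 85922 edges in the 9 whole lists. A peak called in a single library cannot share an edge, and the shares were not matched for this. At Txn1 the lower edge at position 57956435 of chromosome 4 was common to 4 libraries, and at Nfe2l2 the lower edge at 75704335 of chromosome 2 was common to 4 and the upper edges at 75704891 and 75704974 to 3 each. At Sod2, position 13008013 of chromosome 17 was the upper edge of 2 control SMC3 peaks and the summit of 2 YY1 and 2 H3K4me3 peaks. These are values for a closer look, and the source of the shared positions was not tested.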
